A study of Homo sapiens with 24 samples.

Results

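The 10 genes described here are MYC, its long non-coding neighbour PVT1, the MYC partner MAX, the MYC antagonist MXI1, the D-type cyclin genes CCND2 and CCND3, the kinase gene CDK6, the CDK inhibitor genes CDKN1A (p21) and CDKN1B (p27), and E2F1. They were chosen by name, with earlier results of these data known. A super-enhancer was assigned to a gene when it overlapped the GENCODE version 44 gene body (hg38) extended by 50 kb on each side. For the MYC and PVT1 locus, every super-enhancer within 1 Mb of the MYC transcription start site (TSS) was searched for. Of the 2615 super-enhancers in the deposited table, 8 met the rule, and they lay within 50 kb of 5 of the 10 genes. The same rule held for 30.7% of all protein-coding genes. It rests on distance alone and does not show which gene a region acts on.

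CUT&RUN, which uses a nuclease guided by an antibody to cut out and sequence the DNA under a histone mark, was performed for H3K27ac, H3K4me1 and H3K4me3 in clones of OCI-Ly7, a line established from a germinal center type diffuse large B-cell lymphoma (GCB-DLBCL). The clones were WT, homozygous CREBBP R1446C knock-in (C), homozygous KMT2D knockout (K), or carried both lesions (CK), and WT clones had been through CRISPR without being edited. Each of the 12 combinations of mark and genotype had 2 samples. The table holds super-enhancers of WT cells in a single signal column made from the combined H3K27ac WT libraries, so the values carry no error between replicates and no test was run. The remaining 22 samples, in 11 groups, were not analysed here.

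MYC is a transcription factor that drives growth and entry into the cell cycle, and it binds DNA at the E-box as a heterodimer with MAX. MXD family proteins such as MXI1 compete for MAX and repress the same sites. D-type cyclins activate CDK4 and CDK6, which phosphorylate RB and release E2F factors, while p21 and p27 hold cyclin and CDK complexes back. In germinal center B cells MYC is expressed in a small fraction of cells, those selected to divide again, and CCND3 is the D-type cyclin on which dark zone proliferation depends.

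A super-enhancer is a cluster of H3K27ac peaks stitched into a region whose signal passes a cutoff set by the ROSE software. The signal was taken over the whole region, gaps between peaks and any gene starts inside it included. H3K27ac marks active enhancers and promoters. The signal is a relative value within this table, since its unit was not stated, and the cutoff was 10617. Over the 2615 super-enhancers the median signal was 19736, the median length 60.7 kb, the median number of constituent peaks 16 and the median signal per bp 0.343. ROSE left out peaks close to a TSS before stitching, so the promoter peak of a protein-coding gene by itself does not make a super-enhancer. This need not hold for non-coding genes such as PVT1, since the paper states that TSSs of non-coding RNAs were removed. Regions below the cutoff were not analysed here. As a check of the labelled cell type, 9 of 10 marker genes of B cells and germinal center B cells had a super-enhancer within 50 kb, among them BCL6, BACH2, PAX5 and MS4A1. This compares with 0 of 10 markers of other cell types and 30.7% of all protein-coding genes. Since general B-cell genes such as PAX5 and MS4A1 are among the markers, the check does not single out germinal center cells.

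MYC itself had no super-enhancer within 50 kb. Within 1 Mb of its TSS the table held 0 super-enhancers, and the same was true of PVT1, the non-coding gene next to MYC that is known to hold MYC enhancers. Distances were measured along hg38, and rearrangements of the locus in OCI-Ly7 were not examined. MAX and MXI1, the partner and the antagonist of MYC, each had 2 super-enhancers, including those of rank 14 and rank 9 of the whole table. CCND3 also had 2, CDKN1B and E2F1 had 1 each, and CCND2, CDK6 and CDKN1A had none within 50 kb. Among all 19970 protein-coding genes 30.7% had a super-enhancer within 50 kb, compared with 5 of the 9 protein-coding genes on the list. A super-enhancer among the 262 with the highest signal lay within 50 kb of 3 of these 9 genes (MAX, MXI1 and E2F1) and of 3.59% of all protein-coding genes. None of these 3 regions overlapped the body of its gene, with distances of 32.6 kb (MAX), 13.1 kb (MXI1) and 19.5 kb (E2F1). Each reached into the window of its gene with less than 50% of its length. For non-coding genes such as PVT1, the share with a super-enhancer within 50 kb was 22.0% of 18756 lncRNA genes.

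**Figure D1:**
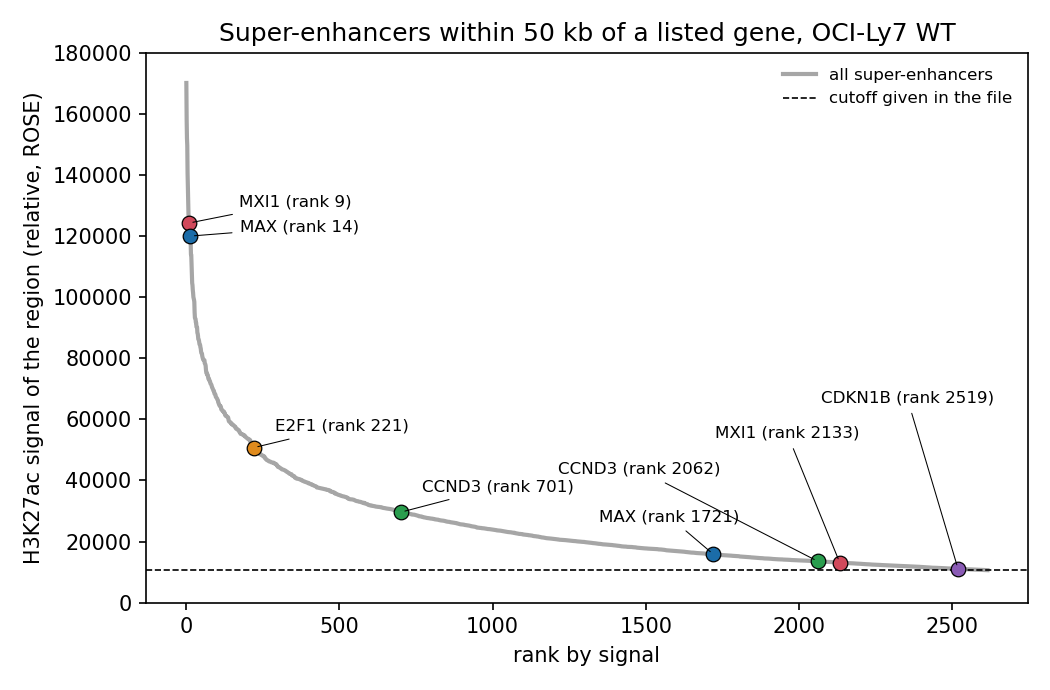
H3K27ac signal of each super-enhancer (vertical axis, relative ROSE signal) against its rank (horizontal axis) in OCI-Ly7 WT. The grey line holds all 2615 super-enhancers, the dashed line is the cutoff, and the 8 coloured points are those within 50 kb of a listed gene: MXI1 (rank 9) and MAX (rank 14) stand on the steep left end at 124295 and 120038, while CDKN1B (rank 2519) lies at 1.04 times the cutoff.

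The MYC gene (ENSG00000136997.22, chr8:127735434-127742951, plus strand) lay in a stretch of 4.35 Mb without a super-enhancer. The nearest one upstream was rank 1781 at chr8:125542738-125617160, 2.12 Mb from MYC. It had a signal of 15361, or 1.45 times the cutoff, over 74.4 kb with 12 constituents. This super-enhancer overlapped no protein-coding gene, and its nearest start was that of TRIB1, which encodes a pseudokinase, at 112 kb. The nearest one downstream was rank 1941 at chr8:129969592-130012922, 2.23 Mb from the MYC gene. It had a signal of 14147 over 43.3 kb with 11 constituents, and 98.6% of its bases were in introns of CYRIB, a regulator of RAC1 signaling. Both flanking super-enhancers were therefore in the lower part of the table, with 31.9% and 25.8% of all super-enhancers at or below their signal.

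The empty stretch around MYC held 4 protein-coding genes, LRATD2, POU5F1B, MYC and GSDMC. It was in place 160 when the 2592 gaps between neighbouring super-enhancers were ordered by length, so 6.13% of gaps were longer, and the median gap was 216 kb. A window of 1 Mb on each side of the TSS was also empty for 3998 of 19970 protein-coding genes (20.02%), and the median gene had 3 super-enhancers in it. A window of 2 Mb was empty around MYC as well as around 10.5% of protein-coding genes. By distance, 9.61% of protein-coding genes lay farther from a super-enhancer than MYC.

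PVT1 (ENSG00000249859.14, chr8:127794526-128187101, plus strand) spans 393 kb downstream of MYC within the same stretch. Its nearest super-enhancer was again rank 1941, 1.78 Mb beyond its end. None of the 132 annotated PVT1 transcript starts and none of the 14 MYC transcript starts was inside a super-enhancer.

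MAX (ENSG00000125952.21, chr14:65006174-65102695, minus strand), the obligate partner of MYC in DNA binding, had the super-enhancer of rank 14. It was at chr14:65135256-65330377, starting 32.6 kb upstream of the MAX TSS. Its signal was 120038, which is 11.3 times the cutoff, over 195 kb with 43 constituents. It overlapped no protein-coding gene, only non-coding genes and pseudogenes such as LINC02324. MAX was the only protein-coding gene within 50 kb of it, and the next nearest start, that of the fucosyltransferase gene FUT8, was at 80.2 kb. Of all super-enhancers, 99.5% were at or below its signal, and its 0.615 signal per bp was at or above that of 82.8% of super-enhancers.

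The other MAX super-enhancer, rank 1721 at chr14:65052902-65116701, held the MAX start and part of the gene body. It had a signal of 15790, or 1.49 times the cutoff, over 63.8 kb with 19 constituents. It also reached into FNTB, which encodes a farnesyltransferase subunit, and the read-through gene CHURC1-FNTB, and introns made up 66.9% of it and exons 11.1%. The upstream region therefore carried 7.60 times the signal of the region over the gene, with 2.49 times the signal per bp. All 14 annotated MAX transcript starts were inside the rank 1721 region.

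The first and last constituent windows of a super-enhancer can be placed from the table, since constituents were 401 bp wide. These windows were searched on both strands for the MYC and MAX E-box CACGTG, the E2F sequences TTTGGCGC and TTTCGCGC, and, added after the data were seen, the octamer ATGCAAAT, the ETS family sequence GAGGAAGT and the AP-1 and BATF sequence TGANTCA. The first window of the rank 14 super-enhancer upstream of MAX held the E-box, as the only one of 16 end windows of the 8 super-enhancers. Over the table, 6.46% of 5218 such windows held it, so 1 of 16 was near the background. The stretch is shown on the plus strand of hg38 at chr14:65135256-65135356, with the E-box in capitals:
MAX rank 14, first window: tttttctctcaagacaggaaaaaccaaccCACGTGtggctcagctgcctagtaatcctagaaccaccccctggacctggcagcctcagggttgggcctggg

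A RefSeq promoter entry of MAX is shown because it lies inside a super-enhancer. It also lies inside the gene, past the GENCODE start at chr14:65102695. Its lower-case bases are therefore within the MAX gene body and not upstream of the gene. The sequence is 1 of 2 RefSeq entries for MAX within the rank 1721 region (GRCh38.p14, minus strand, chr14:65102234-65102533), with the bases from the annotated transcript start onward in capitals:
MAX promoter: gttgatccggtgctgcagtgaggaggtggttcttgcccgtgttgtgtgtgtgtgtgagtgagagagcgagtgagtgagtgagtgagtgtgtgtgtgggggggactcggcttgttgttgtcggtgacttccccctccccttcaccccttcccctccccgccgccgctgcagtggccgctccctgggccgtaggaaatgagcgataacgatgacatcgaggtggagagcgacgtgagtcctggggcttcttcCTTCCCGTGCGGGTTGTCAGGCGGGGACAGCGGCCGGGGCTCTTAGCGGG

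Its GC content was 63.3%, and that of the other MAX entry in the region was 68.7%. The other entry also lies inside the gene body. Neither entry held any of the 5 motifs. These were present in between 1.15% (E2F) and 7.68% (TGANTCA) of 34961 RefSeq promoters, with 7.27% for the E-box. The sequence just upstream of the GENCODE start of MAX was not searched.

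MXI1 (ENSG00000119950.21, chr10:110207605-110287365, plus strand) had the super-enhancer with the highest signal on the list, rank 9 at chr10:110300445-110447662. It began 13.1 kb past the 3′ end of the gene and 92.8 kb from the MXI1 TSS. Its signal was 124295, or 11.7 times the cutoff, over 147 kb with 36 constituents. The region overlapped SMNDC1, which encodes a splicing factor, and held the SMNDC1 start, while 96.9% of its bases lay outside protein-coding genes. The start of DUSP5, a phosphatase gene for ERK, was nearer to it (50.2 kb) than that of MXI1. Distance alone thus placed 2 gene starts closer to this region than the MXI1 start.

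A second MXI1 super-enhancer, rank 2133 at chr10:110203674-110222372, held the MXI1 start. Its signal was 13085, or 1.23 times the cutoff, over 18.7 kb with 6 constituents, and 76.0% of its bases were intronic. The rank 9 region had 9.50 times its signal over 7.87 times its length, so the signal per bp differed less, at 0.844 against 0.6998. Of 37 annotated MXI1 transcript starts, 3 were inside the rank 2133 region.

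The last window of the rank 9 region held TGANTCA and GAGGAAGT side by side, sharing 1 base. Among 16 end windows of the 8 super-enhancers, 3 held TGANTCA (rank 9, rank 701 and rank 2133) and 1 held GAGGAAGT, compared with 11.6% and 3.33% of windows over the table. The stretch is given on the plus strand of hg38 at chr10:110447485-110447585, with TGANTCA in capitals and the GAGGAAGT match, read on the minus strand, running on from its last base:
MXI1 rank 9, last window: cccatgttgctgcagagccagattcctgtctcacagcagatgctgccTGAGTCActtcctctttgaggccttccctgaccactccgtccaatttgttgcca

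An MXI1 promoter that lies inside the rank 2133 region is shown likewise. It is 1 of 2 RefSeq entries for MXI1 there (GRCh38.p14, plus strand, chr10:110207355-110207654) with the bases from the annotated start onward in capitals:
MXI1 promoter: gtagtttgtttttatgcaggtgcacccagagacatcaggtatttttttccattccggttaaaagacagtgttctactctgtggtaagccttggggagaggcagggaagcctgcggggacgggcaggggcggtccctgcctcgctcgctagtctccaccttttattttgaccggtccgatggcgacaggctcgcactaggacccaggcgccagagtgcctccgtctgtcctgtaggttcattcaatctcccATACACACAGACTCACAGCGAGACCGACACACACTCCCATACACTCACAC

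Its GC content was 55.0%, that of the other entry in the region was 75.3%, and none of the 5 motifs was in either. MAX and MXI1 were the only listed genes whose start was inside a super-enhancer, 2 of 9 protein-coding genes against 7.81% of all protein-coding genes.

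**Figure D2:**
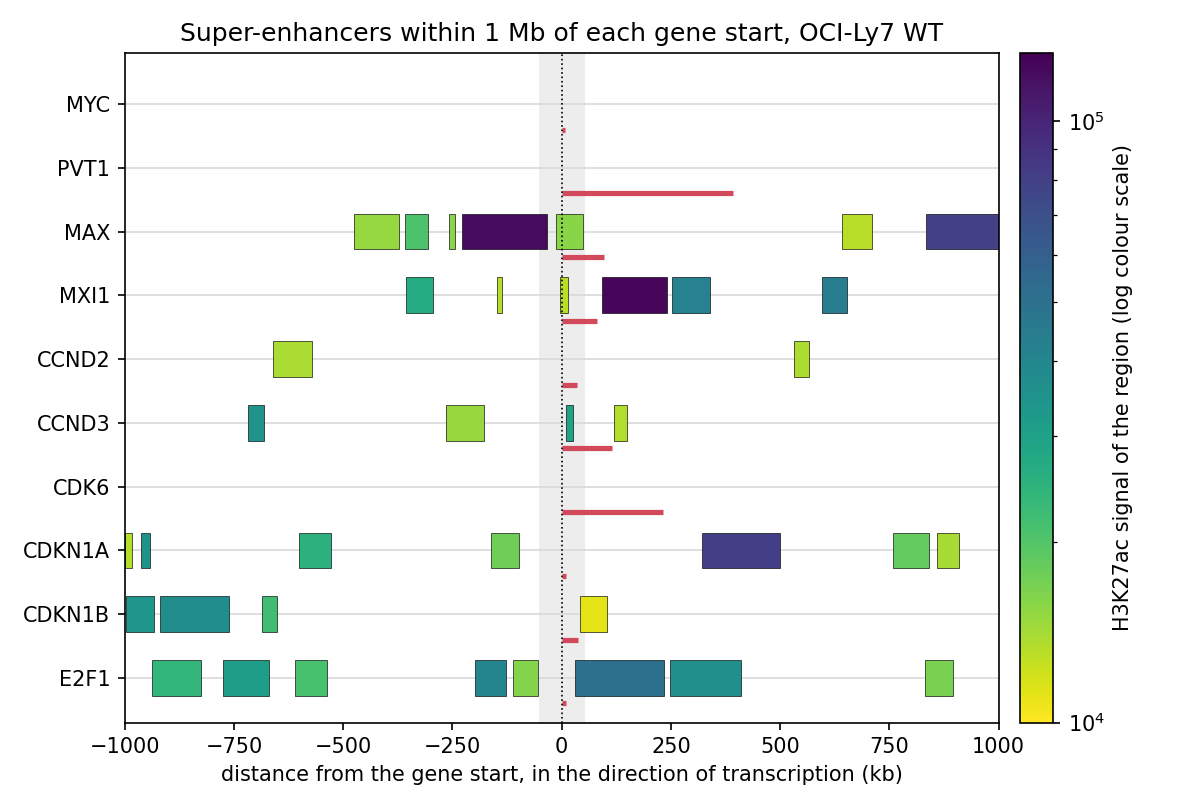
Super-enhancers within 1 Mb of the start of each listed gene in OCI-Ly7 WT, drawn to scale along the distance from the gene start in the direction of transcription (kb). Boxes are super-enhancers coloured by H3K27ac signal on a log scale, red bars are gene bodies and the grey band is 50 kb on each side of the start: the tracks of MYC, PVT1 and CDK6 are empty, and the darkest boxes lie upstream of MAX and downstream of MXI1.

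Both MAX and MXI1 lay in neighborhoods rich in signal. The 1 Mb windows around their starts held 7 and 6 super-enhancers with summed signals of 280042 and 263601, at or above those of 97.8% and 96.8% of protein-coding genes. These sums include the rank 14 and rank 9 regions (signals 120038 and 124295), and a region crossing the window edge was counted whole. By number of super-enhancers the windows of MAX and MXI1 were at or above those of 89.4% and 83.8% of protein-coding genes. The window of E2F1 was also rich, with 8 super-enhancers and a summed signal of 236746, at or above that of 94.2% of protein-coding genes. For MAX, the window included rank 57 over SYNE2 and ESR2, with a signal of 79518. For MXI1, it included rank 303 over RBM20 (signal 44354) and rank 348 over DUSP5 (signal 41543).

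Among the D-type cyclins, CCND3 (ENSG00000112576.13, chr6:41934934-42050357, minus strand) had a super-enhancer within its own body. Rank 701, at chr6:42024783-42039992, began 10.4 kb into the gene, and 98.8% of its bases were intronic. It was short, with 5 constituents over 15.2 kb, and 2.45% of super-enhancers were of that length or shorter. Its signal of 29617, or 2.79 times the cutoff, was at or above that of 73.2% of super-enhancers, but its 1.95 signal per bp was at or above that of 99.3%. The start of TAF8, a gene for a TFIID subunit, was 10.5 kb away on the same side, nearly as close as that of CCND3.

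A second CCND3 super-enhancer, rank 2062 at chr6:41901942-41931596, was 3.34 kb past the 3′ end of the gene. It had a signal of 13490 over 29.7 kb with 12 constituents and held the starts of MED20 and BYSL, so it was not nearest to the CCND3 start, at 119 kb. Compared with it, the intronic rank 701 region had 2.20 times the signal and 4.28 times the signal per bp. None of 18 annotated CCND3 transcript starts was inside either region.

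The last window of the rank 701 region is shown because this region had the highest signal per bp of the 8. It held TGANTCA, in capitals, at chr6:42039644-42039744 (hg38, plus strand):
CCND3 rank 701, last window: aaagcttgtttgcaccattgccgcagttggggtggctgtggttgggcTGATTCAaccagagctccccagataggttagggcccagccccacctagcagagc

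The first window of the same region was repetitive. Of 3 stretches of 31 bases taken from its center, each occurred more than once in hg38, with 13, 38 and 2 copies, while in 14 of the 16 end windows all 3 were found once. Whether repeats bear on the high signal per bp was not tested.

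CCND2 (ENSG00000118971.9, chr12:4269771-4305353, plus strand) had none within 50 kb. The nearest lay 497 kb downstream (rank 2034, signal 13684, over KCNA6 and GALNT8) and 571 kb upstream (rank 1988, signal 13882, over CRACR2A). It therefore stood in a gap of 1.10 Mb, and 20.02% of gaps between super-enhancers were longer.

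CDK6 (ENSG00000105810.10, chr7:92604921-92836573, minus strand), the kinase that D-type cyclins activate, had the longest empty stretch on the list. The gap of 7.33 Mb was in place 72 of 2592, with 2.74% longer, and it held 44 protein-coding genes. On the downstream side the nearest super-enhancer, 1.82 Mb away, was rank 1311 (signal 19701) in an intron of CDK14. On the upstream side rank 290 (signal 45518) over LMTK2, BHLHA15, TECPR1 and BRI3 was 5.28 Mb away.

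Of the CDK inhibitor genes, CDKN1B had a super-enhancer just past the cutoff and CDKN1A had none within 50 kb. CDKN1B (ENSG00000111276.12, chr12:12685498-12722369, plus strand), which encodes p27, had rank 2519 at chr12:12728189-12788988, 5.82 kb past its 3′ end. Its signal of 11059 was 1.04 times the cutoff, over 60.8 kb with 10 constituents. The region lay wholly inside APOLD1, whose start was 2.27 kb from it, and the CDKN1B start was only the 4th nearest at 42.7 kb. Only 3.71% of super-enhancers had that signal or less, the lowest value among the 8. Within 1 Mb upstream were rank 463 (signal 36888) and rank 547 (signal 33658) over ETV6, an ETS family repressor gene.

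CDKN1A (ENSG00000124762.14, chr6:36676460-36687337, plus strand), which encodes p21, was outside the rule. Its nearest super-enhancer, rank 1517 with a signal of 17617 over STK38, was 96.8 kb upstream. A region of far higher signal, rank 51 (81602), was 311 kb downstream and held the starts of FGD2 and PIM1, a kinase gene that is a recurrent mutation target in this lymphoma. With 7 super-enhancers and a summed signal of 205947 within 1 Mb, the CDKN1A window was at or above that of 90.8% of protein-coding genes, although none lay within 50 kb of the gene.

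E2F1 (ENSG00000101412.13, chr20:33675477-33686385, minus strand), a transcription factor that is released from RB at the start of DNA synthesis, had rank 221 at chr20:33452903-33655989. This region lay 19.5 kb past the 3′ end of E2F1, with a signal of 50751 or 4.78 times the cutoff. It was the longest of the 8 at 203 kb, with 63 constituents, and its 0.2499 signal per bp was at or above only 26.0% of super-enhancers. It overlapped CBFA2T2, a transcriptional corepressor gene, held the CBFA2T2 start, and had 7 protein-coding genes within 50 kb. A further super-enhancer, rank 1690 over ZNF341 with a signal of 16084, lay 54.4 kb upstream of E2F1 and was just outside the rule. Of the 13 RefSeq promoter entries of listed genes, inside or outside super-enhancers, 1 held the E-box (7.69%, a CDK6 entry, against 7.27% of all promoters) and 1 held an E2F sequence (the E2F1 entry, against 1.15%), while none held the other 3 motifs.

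**Figure D3:**
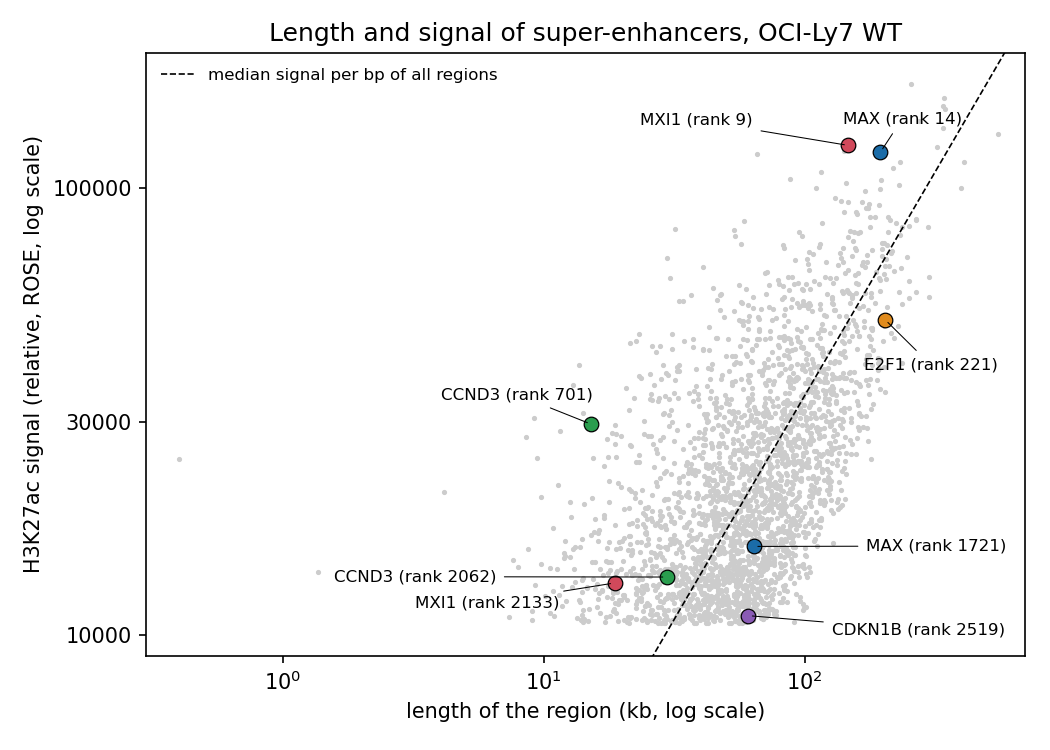
Length (horizontal axis, kb, log scale) against H3K27ac signal (vertical axis, relative, log scale) of the 2615 super-enhancers of OCI-Ly7 WT in grey, with the 8 near listed genes in color. The dashed line marks the median signal per bp of 0.343: CCND3 rank 701 stands far above it at 15.2 kb, and E2F1 rank 221 lies below it at 203 kb.

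The order of the 5 genes thus depended on what was measured. By the signal of the best super-enhancer the order was MXI1, MAX, E2F1, CCND3 and CDKN1B. By signal per bp it was CCND3 (1.95), MXI1 (0.844), MAX (0.615), E2F1 (0.2499) and CDKN1B (0.182). The leading pair by signal, MXI1 and MAX, differed by a factor of 1.04, and with pooled libraries it cannot be said whether that is beyond the spread between replicates. Over the 5 genes the median best signal was 50751, compared with 21038 over the 6140 protein-coding genes with a super-enhancer within 50 kb. With no extension of the gene body the order turned, with 15790 over the 3 genes left (MAX, MXI1 and CCND3) against 20573 over 3445 protein-coding genes. As a group, the 8 super-enhancers had a median length of 62.3 kb, a median of 15.5 constituents and a GC content of 46.0%, close to the 60.7 kb, 16 constituents and 45.7% of the whole table.

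The same count was made for 35 further genes of these pathways, of which 11 (31.4%) had a super-enhancer within 50 kb, near the 30.7% of all protein-coding genes. None of the 35 was near one of the 262 with the highest signal. In the MYC and MAX network 5 of 10 genes had one: MXD1, MXD3 and MNT, which encode MAX-binding repressors, and MLXIP and MLXIPL, which encode partners of MLX. The MYC paralogs MYCN and MYCL had none, with nearest distances of 659 kb and 121 kb. In the RB and E2F family 6 of 12 genes had one, namely RB1, RBL1, E2F2, E2F3, E2F4 and TFDP2. None was found for the 5 other cyclins, the 3 other CDKs or the 5 other CDK inhibitors.

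The strongest of these was rank 511 near MLXIPL, with a signal of 34821. It was followed by rank 673 at MNT (30533), rank 813 at MXD1 (27251), rank 1467 at E2F3 (18076) and rank 1589 near E2F2 (16943). All of these signals were under the best of MAX, MXI1 and E2F1 and over that of CDKN1B, and those near MLXIPL and MNT were also over the best of CCND3. The other cyclin genes were between 172 kb (CCNB1) and 4.43 Mb (CCNE1) from a super-enhancer. The other CDK genes were between 80.9 kb (CDK4) and 1.12 Mb (CDK1) from one, and the other CDK inhibitor genes between 72.2 kb (CDKN2D) and 508 kb (CDKN2C). The median distance from the gene body to the nearest super-enhancer was 58.2 kb for the 10 listed genes, 19.5 kb for the 9 that are protein-coding, 172 kb for the 35 and 182 kb for all protein-coding genes.

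**Figure D4:**
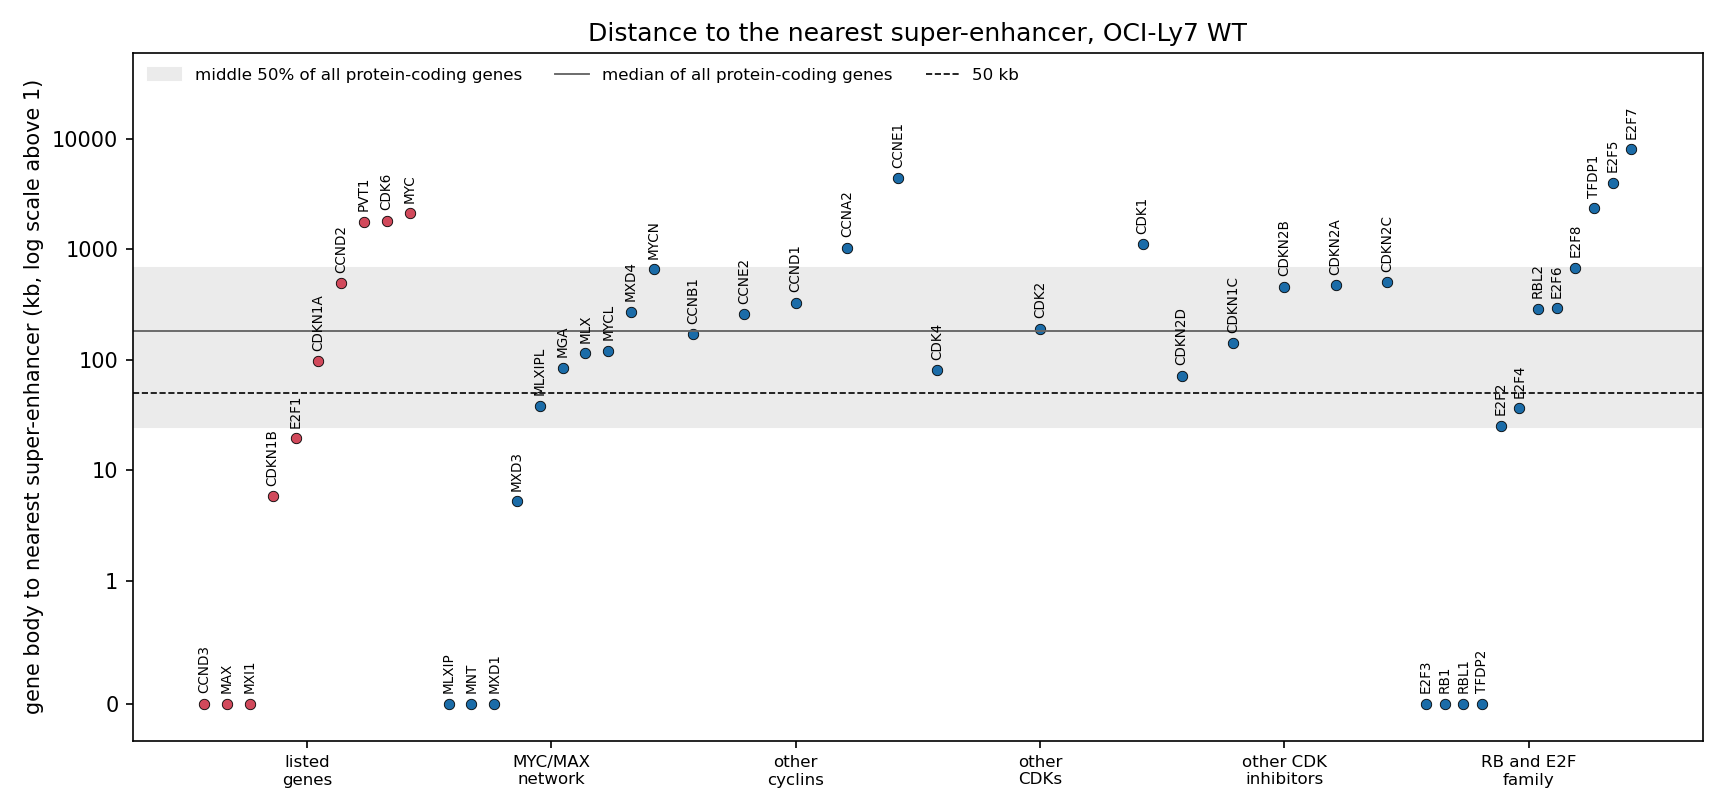
Distance from the gene body to the nearest super-enhancer in OCI-Ly7 WT (vertical axis, kb, log scale above 1) for the 10 listed genes in red and the 35 further genes in blue, 1 point a gene, with 0 for overlap. The grey band holds the middle 50% of all protein-coding genes, the solid line their median of 182 kb and the dashed line 50 kb: MYC, PVT1 and CDK6 lie above the band, while MAX, MXI1 and CCND3 are at 0.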

How the data were processed

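H3K27ac CUT&RUN libraries of OCI-Ly7 WT were aligned to hg38 by the authors in nf-core cutandrun, with IgG controls for each genotype, depth scaled to reads at promoters, SEACR peaks and MACS2 summits. ROSE was run by the authors with stitching at 12.5 kb and peaks within 2500 bp of a TSS left out. The paper adds that the TSSs of non-coding RNAs were removed for this step. The deposited signal is the ROSE signal of each region in 1 column of combined libraries. Its unit and the read depth behind it were not stated in the header, so no counting interval was given. Other deposited columns were the number and summed length of constituents and the rank. The submitters' processing notes also name DiffBind 3.6.1 and DESeq2, which bear on files not analysed here.

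The 10 genes, the list of 35 and the markers were chosen with earlier results of these data known, and all 10 genes are named in the report. Of the 35, those with a super-enhancer within 50 kb were named, with values for the 5 of highest signal, while the others named were chosen after their values were seen. Genes that a named region overlapped, or whose start was nearest to it, were named too. The result for 1 marker gene is not reported here by itself. The authors' own gene links were not used here. Gene bodies came from GENCODE 44. An overlap needed at least 1 base. Shares over all protein-coding genes of the autosomes and X served as the background. Percentiles count regions at or below a value. Constituents were taken as 401 bp wide, since their summed length was a multiple of 401 in 2609 of 2615 regions, and end windows were placed for regions of that kind. RefSeq promoters covered 250 bp before and 50 bp after a start. Entries were found for 7 of the 10 genes, with 13 sequences. Copies of 31 bases were counted on both strands of hg38. With 1 pooled column, no test was run and samples with no value were left out. Scripts were tested on simulated tables. Python 3.11.15, numpy 2.4.6, pandas 2.3.3, numba 0.67.0 and matplotlib 3.10.9 were used. Alternatives were other windows, cutoffs, overlaps and measures.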

Additional observations from a re-analysis of the deposited data

How the results depend on the processing

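The count of listed genes with a super-enhancer was 5 and became 3 with no extension of the gene body (MAX, MXI1 and CCND3), where 17.3% of protein-coding genes had one. It was 4 at 10 kb (20.8% of protein-coding genes), 6 at 100 kb, where CDKN1A joined (39.7%), and 6 at 250 kb (56.0%). It was 5 within 50 kb of the gene start (25.9%) and 5 for regions of 10 or more constituents (26.0%). It was 4 for regions at 2 times the cutoff or more (15.2%), 4 for the upper 1307 regions by signal (16.8%) and 4 when 50% or more of the region had to lie inside the window (23.1%). Under that last rule E2F1 had none, and the regions of highest signal near MAX and MXI1 did not count. With that rule, or with no extension of the gene body, no listed gene kept one of the 262 super-enhancers of highest signal. For the 35 further genes the count of 11 became 7 with no extension (20.0% against 17.3% of protein-coding genes), 19 at 250 kb (54.3% against 56.0%) and 7 when 50% of the region had to lie inside (20.0% against 23.1%). It became 6 within 50 kb of the gene start (17.1% against 25.9%), 3 at 2 times the cutoff (8.57% against 15.2%) and 3 for the upper 1307 regions (8.57% against 16.8%). The median best signal of 50751 became 15790 with no extension, when the top regions of MAX and MXI1 no longer counted and their best signals were 15790 and 13085, and 40184 at 100 kb, when CDKN1A was added. The median percentile of the best region was 91.6 by signal and 82.8 by signal per bp. It was 88.0 by the signal of the whole region divided by the summed length of its constituents. The count of 0 around MYC could not change with the windows and cutoffs tried, since the nearest super-enhancer lay 2.12 Mb away. By either definition of the start, 2 genes had a start inside a super-enhancer. No paired analysis was possible because the libraries were pooled in 1 column and no test was run. Leaving out a replicate could not be done for the same reason, the depth behind a signal is unknown, and regions under the cutoff were not analysed here.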
